A study of Homo sapiens with 2 samples.

Results

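The catecholamine synthesis and secretory granule genes examined here are the machinery with which sympathetic neurons and adrenal chromaffin cells make, pack and store noradrenaline. The list held 10 genes, namely the enzyme genes TH, DDC and DBH, the vesicular monoamine transporter genes SLC18A1 and SLC18A2, and the granule protein genes CHGA, CHGB, SCG2, SCG3 and SCG5. Members were taken by gene symbol in the platform's probe annotation, and 8 of the 10 had a named probe set, 1 each, among 14884 named genes and 16098 named probe sets. SLC18A1 and SLC18A2 had no named probe set and were left out of every value below.

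The cells were BE(2)-C, a clonal human neuroblastoma cell line with amplified MYCN, labelled as a tumour cell of the peripheral nervous system. The linc00467 siRNA group was 1 culture transfected with siRNA against the long noncoding RNA linc00467, and the control siRNA group was 1 culture transfected with a negative control siRNA. Total RNA was taken 48 hours after transfection and hybridized to 1 Affymetrix HuGene-2_0-st array per group, and the authors deposited a log2 level for each of 53617 probe sets. LINC00467 itself had a log2 level of 5.67 on the linc00467 siRNA array and 6.55 on the control siRNA array, or 0.543 times the control signal. The sample's description calls the siRNA target lncMycN, whereas its other labels give linc00467.

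Tyrosine hydroxylase, encoded by TH, turns tyrosine into L-DOPA with tetrahydrobiopterin as cofactor, DOPA decarboxylase (DDC) turns L-DOPA into dopamine, and vesicular transporters carry dopamine into dense-core granules, where dopamine beta-hydroxylase (DBH) makes noradrenaline. Chromogranins and secretogranins are acidic proteins that condense in these granules, and several of them are cut into peptides that are released with the amine. Neuroblastoma arises from the same sympathoadrenal lineage, and catecholamine metabolites and chromogranin A are long-standing markers of the tumour.

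The linc00467 siRNA array had lower levels of CHGA and DBH than the control siRNA array, while the other 6 measured members lay within 1.2 fold. Each difference below is the log2 level with linc00467 siRNA minus the log2 level with control siRNA. With 1 array per group there was no replicate and no test, so that a difference compares these 2 cultures only and its precision is limited by the array number. In RNA from whole cultures, fewer cells that express a gene and less RNA of it per cell cannot be told apart.

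None (0) of the 8 measured members reached 1.8 fold, the cut-off of the study, in either direction. Among all named probe sets this fold was reached by 0.578% in the lower and by 0.224% in the higher direction. At 1.2 fold, which is a log2 difference of 0.26, 2 members were lower and 0 were higher. The share of all named probe sets past 1.2 fold was 9.78% lower and 8.5% higher, and over the brighter 8049 of them, whose mean of both arrays was no less than the median of 5.68, it was 13.4% lower and 10.7% higher. The median difference of the 8 members was -0.05, against 0.00 over all named genes, with 4 members below 0 and 4 above 0. The members thus lay on both sides of 0.

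**Figure D1:**
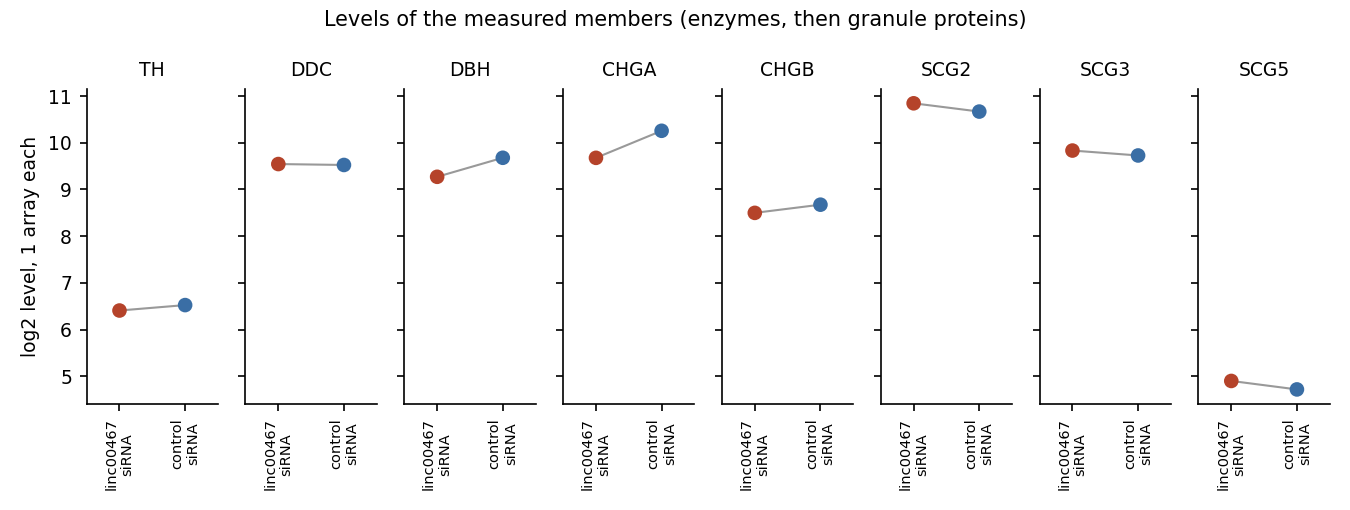
Log2 level of each measured member on the linc00467 siRNA array (red, left) and the control siRNA array (blue, right), 1 array per point, with no error bars because there were no replicates. CHGA and DBH had the steepest lines, and levels of different genes should not be set against each other because each probe set has its own response.

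CHGA encodes chromogranin A, the acidic matrix protein of chromaffin granules and the precursor of peptides such as vasostatin and catestatin. At its chromosome 14 probe set (16787650), the log2 level was 9.68 on the linc00467 siRNA array and 10.26 on the control siRNA array, a log2 difference of -0.58. This was 0.669 times the control signal and the lowest difference of the 8 members. Of all named probe sets, 2.01% had a difference as low or lower.

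DBH encodes the granule enzyme that makes noradrenaline from dopamine. The chromosome 9 probe set of DBH (17090864) gave a log2 level of 9.27 with linc00467 siRNA and 9.68 with control siRNA, a log2 difference of -0.41. The signal with linc00467 siRNA was 0.754 times that with control siRNA, and 4.84% of named probe sets had a difference as low or lower.

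To show the sequence upstream of a member with a lower level and of one without, the RefSeq promoter windows (assembly GRCh38.p14, 250 bases before to 50 bases after the start site) of DBH and of the granule gene SCG3 are given. Both lie on the plus strand. Capitals mark the core TGACG of the cAMP response element (CRE), the Sp1-type GC box GGGCGG and, in DBH, the homeodomain core ATTA, on either strand.
DBH, chr9:133636113-133636412: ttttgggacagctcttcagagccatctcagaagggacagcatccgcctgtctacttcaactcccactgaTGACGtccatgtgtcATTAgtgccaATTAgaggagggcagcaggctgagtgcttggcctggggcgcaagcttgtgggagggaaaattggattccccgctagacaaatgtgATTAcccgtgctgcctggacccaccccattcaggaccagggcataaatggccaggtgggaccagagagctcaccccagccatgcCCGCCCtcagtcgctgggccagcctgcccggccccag
SCG3, chr15:51681253-51681552: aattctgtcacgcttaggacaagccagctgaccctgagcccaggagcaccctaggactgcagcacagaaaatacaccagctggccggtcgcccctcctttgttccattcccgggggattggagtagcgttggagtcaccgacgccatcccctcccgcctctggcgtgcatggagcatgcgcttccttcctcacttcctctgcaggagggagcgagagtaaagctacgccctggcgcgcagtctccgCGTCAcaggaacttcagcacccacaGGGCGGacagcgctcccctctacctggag

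Windows of 5 of the 10 listed genes were searched, 6 windows in all since DDC had 2, and 4 of these genes had a measured level, so the motif counts do not cover all members. TH, CHGB, SCG2 and SLC18A1 had no entry in the promoter table. The core TGACG was found in 4 of the 6 windows, against 24.6% of 35116 RefSeq windows of this length. In DBH it started 181 bases upstream of the start site, in SCG5 17 bases upstream, and in SCG3 the match on the minus strand lay 4 bases upstream. The core also lies within every full CRE, TGACGTCA, a palindrome that was found in 1 of the 6 windows, that of SLC18A2, starting 48 bases upstream, and in 1.85% of all windows. SLC18A2 had no measured level to set beside it.

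In the DBH window the homeodomain core ATTA, part of sites bound by factors such as PHOX2A, occurred 3 times, starting 166, 156 and 71 bases upstream. This short word was found in 4 of the 6 windows and in 50.2% of all windows. The GC box GGGCGG was found in 4 of the 6 windows and in 45.0% of all, and the GATA letters AGATAA in SCG5 alone and in 10.3% of all windows. The MYC-type E-box CACGTG, the AP-1 letters TGANTCA and the TATA box TATAAA were in 0 of the 6 windows, and in 7.26%, 7.71% and 11.5% of all windows. Both strands were searched for each motif, and a match of letters is no evidence of binding.

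**Figure D2:**
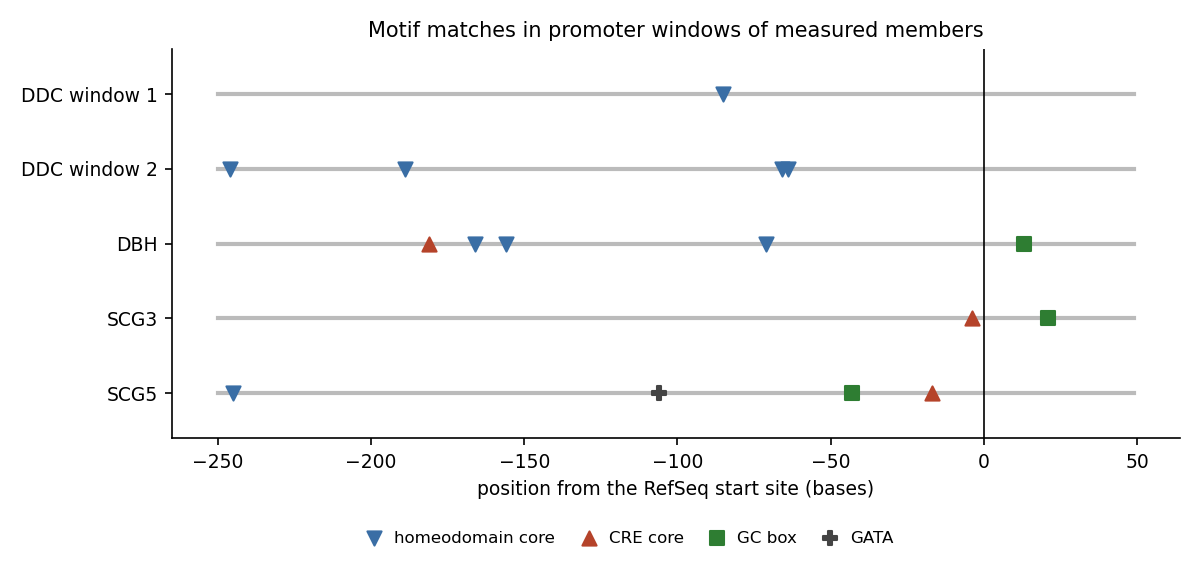
Motif matches in the promoter windows of 4 measured members, by the position of the first matched base from the RefSeq start site in bases (vertical line at 0). DBH holds 3 homeodomain cores, and the CRE cores of SCG3 and SCG5 lie 4 and 17 bases upstream. The 2 DDC windows hold homeodomain cores only, 4 and 1 of them.

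TH encodes tyrosine hydroxylase, the rate-limiting enzyme of the pathway. At the TH probe set (16734397) of chromosome 11, the log2 level was 6.41 on the linc00467 siRNA array and 6.52 on the control siRNA array, a log2 difference of -0.12. DDC, the enzyme gene of the next step, had 9.54 with linc00467 siRNA and 9.52 with control siRNA at its probe set (17057736) on chromosome 7, a log2 difference of 0.02. Both lay within 1.2 fold, so that of the 3 enzyme genes only that of the last step was past it. The median difference of the 3 enzyme genes was -0.12.

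CHGB encodes chromogranin B, the close relative of chromogranin A. The chromosome 20 probe set of CHGB (16911201) gave a log2 level of 8.50 with linc00467 siRNA and 8.67 with control siRNA, a log2 difference of -0.18, and 15.0% of named probe sets had a difference as low or lower. It lay on the same side of 0 as CHGA and within 1.2 fold.

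SCG2 encodes secretogranin II, the precursor of secretoneurin. At the SCG2 probe set (16908977) of chromosome 2, the log2 level was 10.85 on the linc00467 siRNA array and 10.67 on the control siRNA array, a log2 difference of 0.18. SCG3, whose product secretogranin III holds chromogranin A at the cholesterol-rich granule membrane, had 9.83 with linc00467 siRNA and 9.73 with control siRNA at its probe set (16801108) on chromosome 15, a log2 difference of 0.11. SCG5 encodes 7B2, the chaperone of the prohormone convertase PC2. Its probe set (16798938), also on chromosome 15, had 4.90 with linc00467 siRNA and 4.72 with control siRNA, a log2 difference of 0.18, and was the only member with a mean level below the median of named probe sets. These 3 granule genes were on the positive side of 0, within 1.2 fold, and the median of the 5 granule genes was 0.11. The differences of the 8 members thus spanned 0.76 on the log2 scale, with CHGA at the lower end and SCG5 at the upper. The central 95% of all named probe sets lay between -0.54 and 0.45, and only CHGA was outside this range. Over the brighter named probe sets defined above the range was wider, between -0.62 and 0.50, and CHGA lay inside it.

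**Figure D3:**
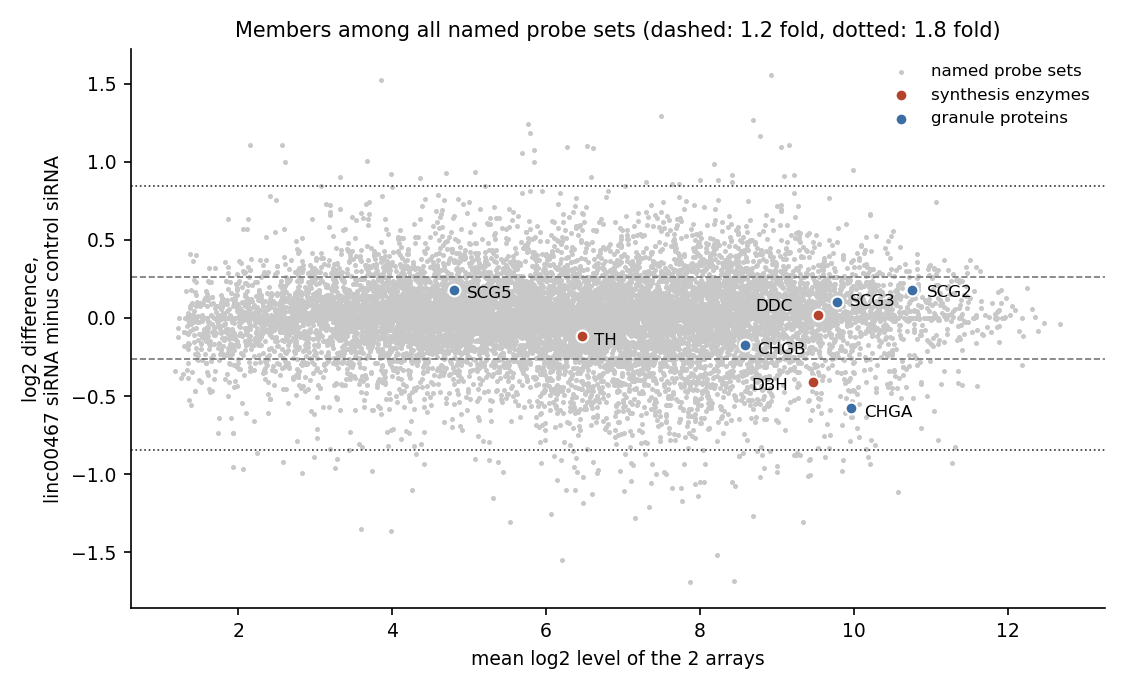
Log2 difference (linc00467 siRNA minus control siRNA) against the mean log2 level of the 2 arrays for all 16098 named probe sets (grey), with the 3 enzyme genes (red) and the 5 granule genes (blue). CHGA at -0.58 and DBH at -0.41 lie below the dashed line of 1.2 fold, no member reaches the dotted line of 1.8 fold, and SCG5 lies at a lower level than the others.

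Tyrosine hydroxylase depends on tetrahydrobiopterin, and genes of the synthesis and recycling of this cofactor were examined as a related list. Of 6 measured genes out of 8 listed, 4 had lower levels with linc00467 siRNA past 1.2 fold and 0 had higher ones. Among all named genes the shares were 9.72% lower and 8.56% higher. These 4 genes were at or above the median level, where 13.4% of named probe sets were lower and 10.7% higher. The median difference of the 6 genes was -0.35, and -0.31 without GCH1, against 0.00 over all named genes. The list was chosen with the GCH1 value known, so its count and median are no independent evidence of a shift.
GCH1 encodes GTP cyclohydrolase I, the first and rate-limiting enzyme of this synthesis. It had a log2 level of 5.89 on the linc00467 siRNA array and 6.84 on the control siRNA array, a log2 difference of -0.96, and was past 1.8 fold, as were 0.558% of named genes in the lower direction and 0.222% in the higher. The GCH1 value on these same 2 arrays was known when the list was chosen, so its direction is no independent evidence.
PTS, which encodes the enzyme of the next step, had 5.93 with linc00467 siRNA and 6.36 with control siRNA, a log2 difference of -0.43. QDPR, the gene of the reductase that regenerates the cofactor, had 7.63 with linc00467 siRNA and 8.02 with control siRNA, a difference of -0.40. PCBD1, which encodes the dehydratase of the recycling step, had 5.91 with linc00467 siRNA and 6.22 with control siRNA, a difference of -0.31. The 4 genes past 1.2 fold thus cover both synthesis and recycling. GCHFR, which encodes a regulatory protein of GTP cyclohydrolase I, had a difference of -0.08, and PCBD2 had exactly equal values on both arrays. Both had a mean level below the median of named probe sets. Exactly equal values were deposited for 23.7% of all probe sets, so a difference of 0 may stand for a small one. SPR had no named probe set.

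Of 4 measured genes of catecholamine methylation, breakdown and reuptake out of 12 listed, 0 were past 1.2 fold, against 9.72% lower and 8.56% higher among all named genes. PNMT, the gene of the enzyme that makes adrenaline from noradrenaline, had a log2 level of 4.48 with linc00467 siRNA and 4.63 with control siRNA, a difference of -0.15. The monoamine oxidase genes MAOA and MAOB had differences of 0.22 and -0.09, and all 3 lay below the median level of named probe sets. ALDH2, an aldehyde dehydrogenase gene, had -0.09.

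Other granule cargo was examined in 18 measured genes of neuropeptide precursors and granin-like proteins, of which 2 (11.1%) were past 1.2 fold in the lower direction and 1 (5.56%) in the higher, close to the 9.72% and 8.56% of all named genes. ADCYAP1, which encodes the neuropeptide PACAP, had a log2 level of 5.98 with linc00467 siRNA and 6.48 with control siRNA, a difference of -0.49. GAL, the galanin gene, had 8.82 with linc00467 siRNA and 9.19 with control siRNA, a difference of -0.37. NPY, which encodes neuropeptide Y, the main peptide stored with noradrenaline in sympathetic neurons, had 10.26 with linc00467 siRNA and 9.97 with control siRNA, a difference of 0.29. The granin-like genes VGF and PCSK1N had -0.22 and -0.09, within 1.2 fold. The median of the 18 genes was -0.01, and 5 had equal values on both arrays.

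Of 8 measured genes of prohormone processing, only CTSL was past 1.2 fold, in the higher direction, or 12.5% against 8.56% of all named genes. CTSL encodes cathepsin L, a lysosomal protease that also cuts peptide precursors in granules, and had a log2 level of 7.64 with linc00467 siRNA and 6.96 with control siRNA, a difference of 0.68. FURIN, a convertase gene, and PAM, which encodes the enzyme that amidates peptides, had -0.05 and 0.03. PCSK1 and PCSK2, the convertase genes of dense-core granules, had no named probe set.

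Of 33 measured genes of granule membrane and exocytosis out of 51 listed, 1.2 fold was passed by 6 (18.2%) in the lower and 3 (9.09%) in the higher direction, against 9.72% and 8.56% of all named genes. The other 24 were within 1.2 fold, and the median was 0.00. By level, 24 of the 33 were at or above the median, where 13.4% of named probe sets were lower and 10.7% higher. The 4 largest differences among those not below the median level were those of SCAMP1, SYT4, HID1 and SYT9. SCAMP1, a secretory carrier membrane protein gene, had a log2 level of 10.54 with linc00467 siRNA and 9.88 with control siRNA, a difference of 0.66. SYT4, which encodes a synaptotagmin of dense-core granules, had 9.26 with linc00467 siRNA and 8.63 with control siRNA, a difference of 0.63. HID1, whose product acts in granule formation at the Golgi, had -0.44, and the synaptotagmin gene SYT9 had -0.41. CYB561, chosen after its values had been seen, encodes the granule membrane cytochrome that regenerates the ascorbate used by dopamine beta-hydroxylase, and had 8.45 with linc00467 siRNA and 8.80 with control siRNA, a difference of -0.35. The 18 listed genes of the proton pump that acidifies granules had no named probe set.

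**Figure D4:**
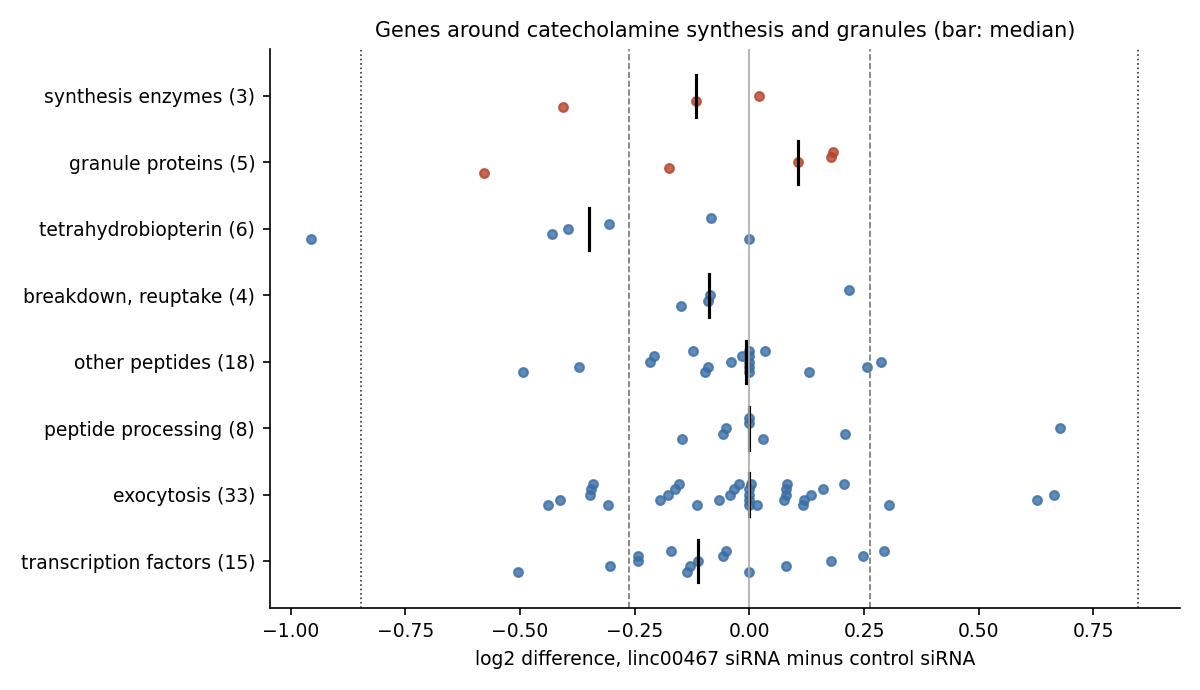
Log2 difference (linc00467 siRNA minus control siRNA) of each measured gene in the enzyme and granule protein groups (red) and in the related lists (blue), with the number of genes in brackets, black bars at the medians, dashed lines at 1.2 fold and dotted lines at 1.8 fold. The tetrahydrobiopterin genes have a median of -0.35, those of the other related lists lie between -0.11 and 0.00, and vertical scatter within a row has no meaning.

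Transcription factor genes of the sympathoadrenal lineage and of granule gene control were set beside the members. Of 15 measured, 2 (13.3%) were past 1.2 fold on the lower side and 1 (6.67%) on the higher, with a median of -0.11. These shares were near those of the brighter named probe sets given above, 13.4% and 10.7%, among which 14 of the 15 genes lay. TBX2 had a log2 level of 7.57 with linc00467 siRNA and 8.07 with control siRNA, a difference of -0.50, GATA3 had -0.30 and ISL1 had 0.29. PHOX2A, which encodes an activator of the DBH promoter, had 8.99 with linc00467 siRNA and 9.23 with control siRNA, a difference of -0.24, within 1.2 fold. The cAMP pathway factors CREB1, CREM and CRTC1 had -0.11, -0.06 and -0.17, also within 1.2 fold. REST, a repressor of neuronal and granule genes, had 4.47 with linc00467 siRNA and 4.22 with control siRNA, a difference of 0.25, short of 1.2 fold and below the median level.

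Of 9 measured markers of sympathoadrenal neuroblasts, the lineage from which neuroblastoma arises, 0 lay below the median level of named probe sets. Of 9 measured mesenchymal markers 4 did. Since each probe set has its own response, and SNAI2 and LUM had mean levels of 11.6 and 8.92, these levels do not settle the cell type. Of the 9 neuroblast markers, GATA2, GATA3, PHOX2A, TFAP2B, HAND2 and ISL1 were also among the transcription factor genes above. The 9 markers had a mean log2 level of 9.57 with linc00467 siRNA and 9.72 with control siRNA. A negative difference was found in 8 of them, and the median was -0.19, against 0.00 over all named genes. The share of all named genes below 0 was not counted, so the count of 8 cannot show whether the markers shared a shift. GATA3 and ISL1, named above, were the only ones of these 9 past 1.2 fold, 1 (11.1%) in each direction, against 9.72% lower and 8.56% higher among all named genes. All 9 were at or above the median level, where 13.4% of named probe sets were lower and 10.7% higher. The ISL1 difference of 0.29 was the mean of 2 probe sets. Of 9 measured markers of mesenchymal cells and fibroblasts, 2 (22.2%) lay past 1.2 fold on the higher side and 1 (11.1%), DCN, on the lower, against 8.56% and 9.72% of all named genes, with a mean level of 6.67 with linc00467 siRNA and 6.52 with control siRNA. LUM, which encodes the matrix proteoglycan lumican, had 9.70 with linc00467 siRNA and 8.14 with control siRNA, a difference of 1.56, and SNAI2 had 0.33. FN1 had equal values. VIM had 0.09 as the mean of 3 probe sets, whose differences were 0.16, 0.20 and -0.10. Of 4 Schwann cell markers and 3 blood and endothelial markers measured, 0 were past 1.2 fold, beside the same shares of all named genes, with mean levels of 5.20 and 4.01 with linc00467 siRNA and 5.15 and 3.95 with control siRNA. The part of these markers in the lower CHGA and DBH levels was not tested.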

How the data were processed

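RNA of 2 cultures was measured on 1 Affymetrix HuGene-2_0-st array each. The authors deposited log2 levels per probe set, and these were used as they stand. R and Bioconductor are named in the methods of the study and MAS5 in the submitters' processing notes. Tool versions, the normalization and the build of the array were not given in those sources. Of 53617 probe sets, 16098 carried 1 symbol in the annotation of the platform, 0 carried several and 37519 are unnamed here. All 16098 matched a RefSeq gene by gene number and 0 symbols changed. Probe sets of a gene were averaged.

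With 1 array per group no test was possible, and counts past 1.8 and 1.2 fold are given beside those of all named probe sets or genes. All measured members are named. From each related list, genes past 1.8 fold and up to 4 past 1.2 fold with the largest differences at or above the median level are named, and others complete a description. The members and lists were chosen with earlier results of these data known, including the GCH1 value. The procedure was tested on simulated data with changes larger than those of the members, and at 1.8 fold only. The simulation therefore does not bear on the calls at 1.2 fold. Promoter windows came from RefSeq (GRCh38.p14), and the window of CHGA is not reported here and is in no motif count of the members. Alternatives were median centring, quantile normalization, a lowess correction (fraction 0.2), a floor at the level of gene families taken as silent, the highest probe set, a level filter, and folds of 1.5 and 2. Python 3.11.15, numpy 2.4.6, pandas 2.3.3, statsmodels 0.14.6 and matplotlib 3.10.9 were used.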

Additional observations from a re-analysis of the deposited data

How the results depend on the processing

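Of 83 values recomputed under the alternatives, all 83 kept their count or moved by less than 0.1 on the log2 scale. None (0) changed sign past 1.2 fold. Many of these values could not move. Median centring subtracted 0, each member had 1 probe set, and all members lay above the floor. A fold of 2 could not be reached where 1.8 fold was not. For the members, only quantile normalization, the lowess correction, the level filter and the fold of 1.5 could change a value. CHGA ranged between -0.60 and -0.58 and DBH between -0.43 and -0.40. CHGA was short of 1.5 fold as deposited, at 0.669 times the control signal, and its lowest value of -0.60, with the lowess correction, was past the log2 limit of 0.585. The median of the members ranged between -0.12, without SCG5, and -0.03. TH moved most, to -0.07 with quantile normalization. For the tetrahydrobiopterin genes, the alternatives were chosen after seeing the data. Their count of 4 lower genes held under quantile normalization and the lowess correction, while median centring and the floor could not change it. The median of these genes was -0.31 without GCH1. The floor rested on 17 silent genes, at 3.48 with linc00467 siRNA and 3.63 with control siRNA. No replicate could be left out with 1 array per group. No paired analysis was possible because each group had 1 array. With 1 culture and 1 siRNA, culture, hybridization and siRNA cannot be told apart.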

Other observations

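Among the genes of granule exocytosis, members of the same gene family differed in opposite directions past 1.2 fold on these 2 arrays. SCAMP1 had a log2 difference of 0.66 (linc00467 siRNA minus control siRNA) and SCAMP5, a brain-enriched relative, had -0.35. SYT4 had 0.63, whereas the synaptotagmin genes SYT9 and SYT11 had -0.41 and -0.34. RPH3AL, which encodes the Rab effector Noc2, had 0.30 and RPH3A, the rabphilin gene, had -0.31. The calcium sensor genes SYT1 and SYT7 were within 1.2 fold, with -0.11 and 0.00. The choice of these pairs was made with their values in view.

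Genes of other transmitters were also examined. CHAT, which encodes the acetylcholine-making enzyme, had a log2 level of 5.43 with linc00467 siRNA and 5.59 with control siRNA, a difference of -0.15. TPH1 and HDC, the enzyme genes of serotonin and histamine synthesis, had equal values on both arrays, and TPH2 had 0.18 at a mean level of 2.79. All 4 lay below the median level of named probe sets.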
